A study of Rattus norvegicus with 138 samples.

Results

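The nucleus of the solitary tract (NTS) of spontaneously hypertensive rats (SHRs) was compared with that of the Wistar-Kyoto (WKY) strain at 10 wk of age, an age the study counts within the onset period of hypertension. The libraries are those of the NTS table that were named for 10 wk, 5 from SHRs and 4 from WKY rats, 9 of the 46 NTS libraries of the series. The rest of the series holds other rats of 8, 12, 16 and 24 wk, and the rostral (RVLM) and caudal (CVLM) ventrolateral medulla of the same rats. All 9 rats were untreated females, the SHRs of the substrain SHR/NHsd and the WKY rats of WKY/NHsd, and each gave 1 library from bilateral punches of the frozen brainstem taken after isoflurane and decapitation. Blood pressure was recorded by the study at other ages only, and the strains differ throughout the genome, so that strain and hypertension cannot be told apart here. Expected counts per gene had been deposited, and 13793 of the 32883 genes of the table passed a filter on low counts and were tested.

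The NTS is the first relay in the brainstem for signals from the baroreceptors, the chemoreceptors and the viscera. Its neurons use glutamate, GABA and glycine, and a catecholamine group lies among them. From there the CVLM is driven, which in turn inhibits the presympathetic neurons of the RVLM, and this chain lowers sympathetic outflow when blood pressure rises. The area postrema, which lacks a blood-brain barrier, lies directly above the NTS.

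The punches carried several of the genes that mark this nucleus. Levels are CPM, counts scaled to library size with TMM normalization, and they are compared here for 1 gene between regions. Gcg, the precursor of glucagon-like peptide 1, had 53.5 CPM (median of the 9 libraries, range 16.4 to 147), against medians of 0.139 CPM in the RVLM and 0.602 CPM in the CVLM of the same rats. Prlh, the prolactin-releasing peptide, had a median of 3.84 CPM in the NTS and 0 in both other regions, and Npff 14.6 CPM against 0.637 and 1.19 CPM. Lmx1b, a transcription factor among the NTS markers, had 0 counts in all 9 libraries. Calcr, at 35.6 CPM against 4.602 and 9.04 CPM, and Gfral, at 8.67 CPM, are markers of the area postrema. The punches therefore also held RNA of that neighbour or of NTS cells that express them. Glp1r, of the same list of markers, had 4.78 CPM in the NTS, 0.695 CPM in the RVLM and 4.46 CPM in the CVLM. Th and Dbh, of catecholamine neurons, had 157 and 84.2 CPM in the NTS, 36.8 and 6.02 CPM in the RVLM, and 156 and 87.6 CPM in the CVLM. In such bulk samples fewer cells of a type and less RNA per cell cannot be told apart.

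Total counts ran from 12777588 to 17755961 per library. One library stood furthest apart in its strain. In SHR1, the first of the 5 SHRs (SHR1 to SHR5), the summed level of 80 cytosolic ribosomal protein genes was 7316 CPM, against 4665 to 5433 CPM in the other SHRs and 4697 to 5867 CPM in the WKY rats (WKY1 to WKY4). The 74 nuclear-encoded genes of oxidative phosphorylation summed to 30876 CPM in SHR1, with 20872 to 23299 CPM in the other SHRs. The 13 genes of the mitochondrial genome summed to 66465 CPM there, with 42679 to 50984 CPM in the other SHRs. On the first principal component, with 36.4% of the variance, SHR1 lay at -11.1, between the WKY rats (-40.6 to -17.5) and the other SHRs (9.42 to 44.0). On the second, with 17.0%, SHR1 lay at -43.9 and WKY2 at 38.5, with the other libraries at -6.30 to 8.93. The correlation with the mean of the rest of the group was 0.970 in SHR1, 0.974 in WKY2 and 0.981 to 0.988 in the others. Counts that SHR1 moves by over 1.5 times are given with and without it, as an alternative chosen after the data were seen. In WKY4, 7 markers of the choroid plexus summed to 119 CPM, against 5.90 to 8.35 CPM in the other 8 libraries, and none of them is read as a difference of strain.

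**Figure D1:**
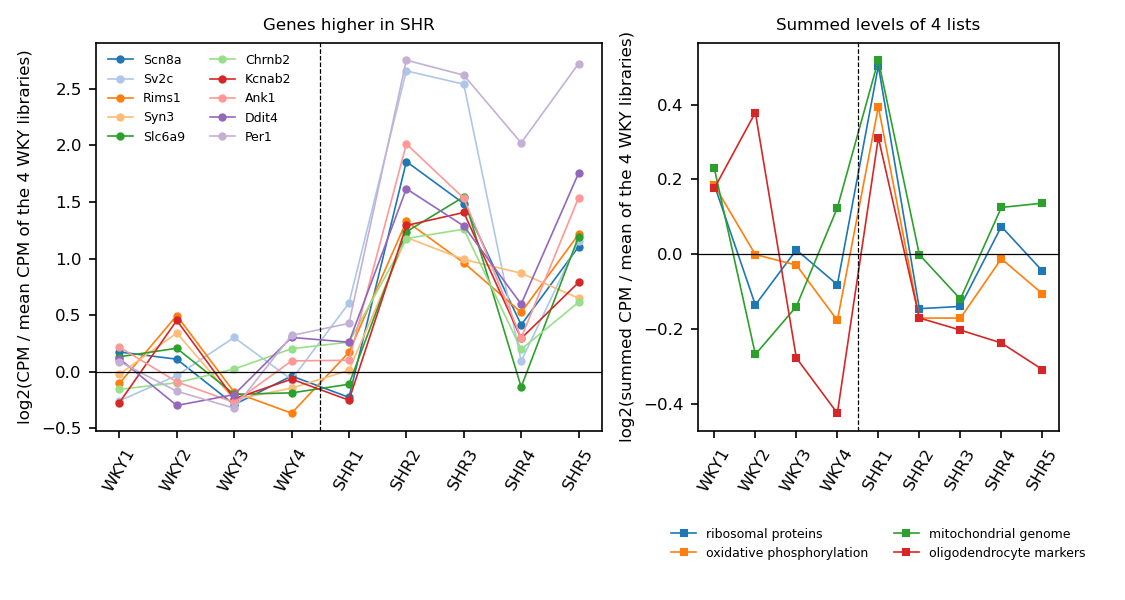
Left, log2 ratio of the CPM of 10 genes to their mean in the 4 WKY libraries, for each library of the NTS at 10 wk. Right, the same ratio for the summed CPM of 4 gene lists. Lines join the points of a gene or list and carry no order. In SHR1 all 10 genes lie lower than in SHR2, SHR3 and SHR5, while the sums of ribosomal, respiratory and mitochondrial genes lie above all other libraries.

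The term called is used for genes that differed at least 2 times in either direction (log2 fold change of 1) with an adjusted p no greater than 0.01, by edgeR's quasi-likelihood test with Benjamini-Hochberg adjustment. By this rule 96 genes were upregulated in SHRs, 0.696% of those tested, and 76 were downregulated, 0.551%. Together these were 172 genes or 1.25%, with a median absolute log2 fold change of 1.66. At an adjusted p under 0.05 without a limit on the fold, 338 genes were higher (2.45%) and 274 lower (1.99%), and this second rule is the one used for single genes and lists below. The median log2 fold change over all genes was 0.02, with a median standard error of 0.20. In 83 of the 96 and in 72 of the 76, the libraries of the strains did not overlap, against 3.18% of all genes with every SHR above every WKY rat and 4.5% with every SHR below. SHR1 was the library that most often fell among the WKY rats, in 106 of the 338 higher genes, followed by SHR4 with 49, and the other SHRs did so in 3 to 6. Without SHR1, 147 genes were called higher and 70 lower, and 723 and 396 passed an adjusted p of 0.05.

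**Figure D2:**
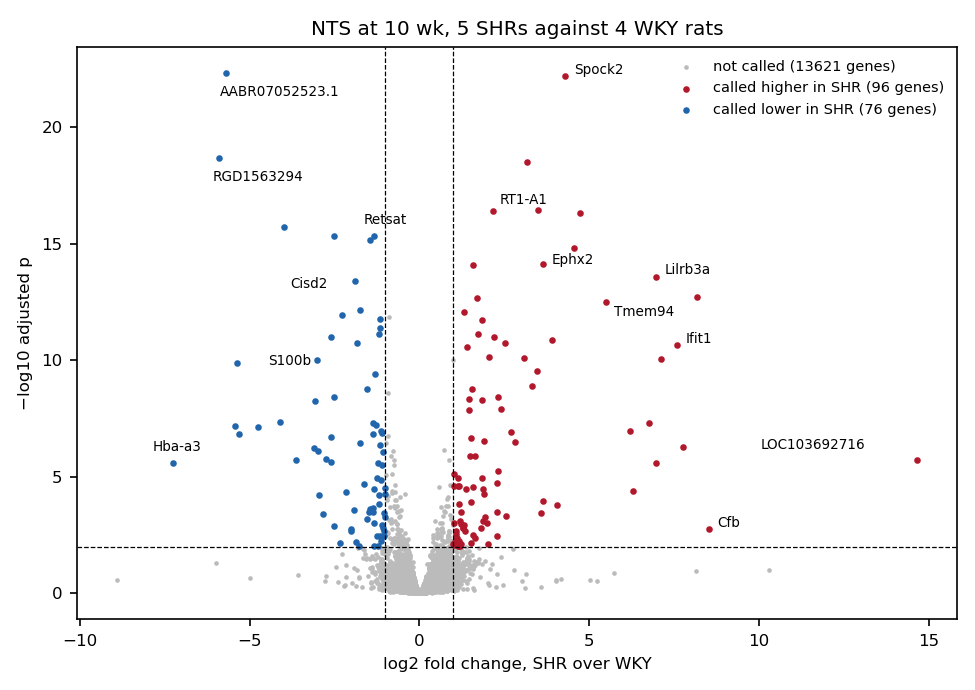
Log2 fold change of SHRs over WKY rats against the negative log10 of the adjusted p, 1 point per gene tested in the NTS at 10 wk. Dashed lines mark the limits of the call, red points are the 96 genes called higher and blue points the 76 called lower.

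The genes that differed most were mostly the same at other ages and in other regions. Those named are the 15 highest and the 15 lowest called genes with a mean of at least 50 counts over the 9 libraries, and 14 of each 15 were called at all 5 ages with 1 sign. All of the 15 highest were also called in the RVLM and in the CVLM at 10 wk, as were all 14 of the lowest that were tested there. Over all 172 called genes, the number called with the same sign was 109 at 8 wk, 103 at 12 wk, then 97 (16 wk) and 102 (24 wk), which is 56.4% to 63.4% of the 172. These make up 64.9%, 61.7%, 87.4% and 75% of the genes called at those ages in the NTS, none had the opposite sign, and 79 were called at all 5 ages. The other ages are other rats, whereas the regions come from the same rats. In the RVLM 103 of the 172 were called, and in the CVLM 109, or 66.5% and 69.0% of the genes called there. Of 159 called genes that were tested in all 3 regions, 146 had 1 sign in all. Genes with provisional names, whose models may share reads with near-identical copies, made up 19.8% of the called genes and 8.16% of those tested.

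Among the upregulated genes, Spock2, which encodes the matrix proteoglycan testican-2, had 233, 224, 228, 214 and 212 CPM in SHR1 to SHR5 and 9.19, 16.0, 11.0 and 8.999 CPM in WKY1 to WKY4. Every SHR was above every WKY rat, with no SHR apart, and the log2 fold change was 4.29 (adjusted p = 6.29e-23, standard error 0.17). Ephx2, the soluble epoxide hydrolase that breaks down epoxyeicosatrienoic acids and a candidate gene of the SHR, had 36.0, 29.9, 27.2, 33.3 and 32.0 CPM in SHRs and 3.24, 0.880, 3.73 and 2.31 CPM in WKY rats. Its log2 fold change of 3.66 (standard error 0.25) was close to the 3.85 to 4.21 of the other ages, and it was the 1 of 7 SHR candidate genes tested that passed, with a median over these 7 of -0.20. Ptprn2, a protein of dense-core vesicles, was lowest among SHRs in SHR1, with 146 CPM against 216 to 248.6 CPM in the others, and had 16.6 to 22.4 CPM in WKY rats. The groups lay far apart, at a log2 fold change of 3.47 (adjusted p = 2.94e-10).

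Further genes were near 0 in WKY rats. Lilrb3a, an inhibitory receptor of leukocytes, had 11.5 to 12.8 CPM in SHRs and 0 to 0.317 CPM in WKY rats. Ifit1, an interferon-induced protein that binds viral RNA, had 7.68 to 25.4 CPM in SHRs and at most 0.225 CPM in WKY rats. AABR07064061.1 had 32.8 to 46.1 CPM in SHRs and was at 0 in all WKY rats but WKY1, with 0.527 CPM. The others among the 15 highest with a settled name were Pxmp4, of the peroxisomal membrane (log2 fold change 3.48), Tomm40l, of mitochondrial protein import (3.18), Pnpla1, a phospholipase-like protein (3.08), and Apoa5, an apolipoprotein (2.81). LOC103690108, LOC100911830 and LOC100360940 had log2 fold changes of 4.73, 4.55 and 3.91, and no strain overlapped in any of these 7.

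Among the downregulated genes, AABR07052523.1 had 13.1, 8.85, 8.18, 10.0 and 8.45 CPM in SHRs and 515, 496, 514 and 479 CPM in WKY rats, at a log2 fold change of -5.69 (standard error 0.21). RGD1563294 had 2.32 to 4.51 CPM in SHRs and 198 to 219 CPM in WKY rats. Both are gene models without a settled name, as are LOC100909441, AABR07057196.1 and LOC100362027 among the 15 lowest. Pik3r1, the regulatory subunit of phosphoinositide 3-kinase, had 24.5, 30.3, 28.9, 21.6 and 26.998 CPM in SHRs and 89.4, 91.0, 81.7 and 92.2 CPM in WKY rats. The groups were well separated (log2 fold change -1.74, standard error 0.14, adjusted p = 6.94e-13), and the other ages had -1.13 to -1.58. Aif1l, an actin-bundling protein, had 4.76 to 8.69 CPM in SHRs and 26.1 to 38.3 CPM in WKY rats. Also lower were Tmem106c (-2.51), Acsm3, a medium-chain acyl-CoA synthetase (-2.61), Serhl2, a serine hydrolase (-2.51), Tstd1 (-3.09) and Haghl (-1.84).

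S100b, the calcium-binding protein of astrocytes, was also called lower. It had 1802, 1505, 1467, 1669 and 1684 CPM in SHRs and 3966, 3409, 3518 and 3735 CPM in WKY rats. The highest SHR lay far under the lowest WKY rat, and the log2 fold change was -1.17 (adjusted p = 4.19e-12, standard error 0.10), with -1.09 in the RVLM and -1.18 in the CVLM. It was the 1 of 10 astrocyte markers that passed, the median over the 10 was 0.00, and none of the 10 was at 0. Summed, the 10 markers had 4248 to 4679 CPM in SHRs and 6438 to 7282 CPM in WKY rats, without overlap. S100b alone held 1467 to 1802 CPM of this sum in SHRs and 3409 to 3966 CPM in WKY rats. Of the 10, 5 had a log2 fold change above 0 and 5 below, and only S100b had every SHR under every WKY rat. The sum is therefore not read as a difference of astrocyte markers as a group.

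**Figure D3:**
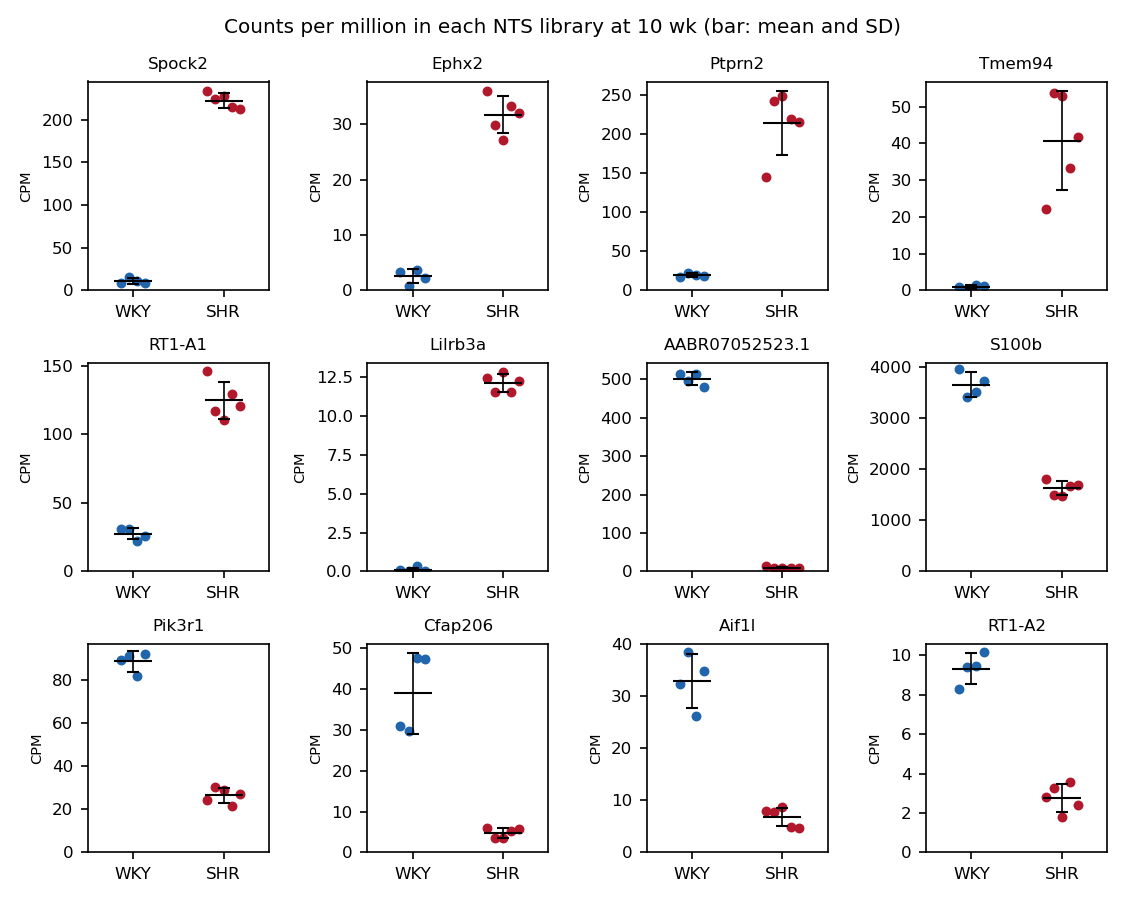
CPM of 12 genes in each library of the NTS at 10 wk, with the mean and SD of the 4 WKY rats (blue) and the 5 SHRs (red). No SHR overlaps a WKY rat in any of the 12, from Spock2 (212 to 233 CPM against 8.999 to 16.0 CPM) to S100b (1467 to 1802 CPM against 3409 to 3966 CPM).

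Voltage-gated channels set the firing of NTS neurons. The counts of their genes that passed stand beside 2.45% of all genes higher and 1.99% lower, or 4.44% in either direction. Counts without SHR1, here and below, stand beside 723 of the 13793 genes higher and 396 lower, against 338 and 274 with it. Of 9 voltage-gated sodium channel genes tested 1 was higher, with a median log2 fold change of 0.40 over the 9. This was Scn8a, the channel Nav1.6 of the axon initial segment, with 6.22, 26.3, 20.4, 9.69 and 15.6 CPM in SHRs and 8.21, 7.85, 5.95 and 7.09 CPM in WKY rats. SHR1 lay within the WKY rats and SHR2 to SHR5 above them, at a log2 fold change of 1.10 (adjusted p = 0.0291, standard error 0.31). It held the threshold without SHR1 or without SHR4, whereas without any 1 of the other 7 rats the adjusted p ran from 0.0502 (SHR5) to 0.171 (SHR2). Scn1a, or Nav1.1, did not pass (log2 fold change 0.73, adjusted p = 0.0654) but did so without SHR1 (0.0333) and without SHR4 (0.0392). Ank1, an ankyrin that ties membrane proteins to the cytoskeleton, was higher by 1.27 on the log2 scale (adjusted p = 0.0172), with SHR1 (4.52 CPM) inside the range of the WKY rats (3.49 to 4.90 CPM), and its adjusted p rose to 0.106 without SHR2, 0.0513 without SHR3, 0.0516 without WKY2 and 0.0701 without WKY3.

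Of 48 potassium and HCN channel genes and their partners, 3 were higher and 1 lower, with a median of 0.31, and without SHR1 these were 8 and 1, with 1 to 8 higher when any 1 rat was left out. Kcna6, the Shaker channel Kv1.6, had 108, 145, 156, 110 and 120 CPM in SHRs and 81.6, 98.3, 84.0 and 89.2 CPM in WKY rats. SHR1 and SHR4 were the closest to the WKY rats without overlap, and the log2 fold change was 0.53 (adjusted p = 0.00321, standard error 0.12). Kcnh5, an ether-a-go-go channel, had 2.59 to 5.08 CPM in SHRs and 0.951 to 2.47 CPM in WKY rats (log2 fold change 1.27, adjusted p = 0.0153), which became 0.0584, 0.0644 and 0.0862 without SHR2, WKY1 and WKY3. Kcnab2, a beta subunit of Shaker channels, was higher by 0.83 on the log2 scale (adjusted p = 0.0323), with 13.99 CPM in SHR1 and 20.4 CPM in SHR4 inside the range of the WKY rats (13.8 to 22.8 CPM). With 1 rat left out it passed without SHR1, SHR4 or WKY2, and without any 1 of the other 6 its adjusted p was 0.0526 (SHR5) to 0.176 (SHR3). Kcnip3, the calcium sensor that binds A-type channels, was called lower, with 8.81, 12.8, 17.1, 9.27 and 10.9 CPM in SHRs and 24.0, 27.6, 24.7 and 24.5 CPM in WKY rats. No SHR reached a WKY rat, the log2 fold change was -1.10 (adjusted p = 3.01e-06), and it was called at every other age (-1.02 to -1.29) and in both other regions (-1.42 and -1.32).

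None of 14 voltage-gated calcium channel genes passed, with a median of 0.23, and 1 was higher without SHR1. Of 15 genes of calcium release and pumps, 1 was higher and 1 lower at a median of 0.51, and without SHR1 these were 3 and 0. Atp2b3, a plasma membrane calcium pump, had 50.9, 71.8, 73.4, 51.3 and 57.2 CPM in SHRs and 38.2 to 41.2 CPM in WKY rats. Every SHR was above every WKY rat (log2 fold change 0.62, adjusted p = 0.013), and the adjusted p was 0.0577 without SHR2 and 0.0623 without SHR3. Itpr3, an inositol trisphosphate receptor, was lower, with 0.518 to 1.596 CPM in SHRs and 1.82 to 3.54 CPM in WKY rats (log2 fold change -1.45, adjusted p = 0.0331). It passed without SHR2, SHR4 or WKY3 and not without any 1 of the other 6 rats (0.0606 without SHR1 to 0.119 without SHR3).

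Of 30 genes of synaptic vesicle release, 3 were higher and none lower, with a median of 0.33. Without SHR1 these were 9 and 0, where 723 and 396 of all genes were, against 338 and 274 with it. When any 1 rat was left out, 0 to 9 were higher. The 3 were Sv2c, a vesicle glycoprotein, Rims1, a scaffold of the active zone, and Syn3, a synapsin. Sv2c had 5.48, 22.7, 20.9, 3.84 and 8.03 CPM in SHRs and 3.01, 3.52, 4.44 and 3.43 CPM in WKY rats, so that SHR4 lay within the WKY rats and SHR2 and SHR3 far above. Its log2 fold change was 1.76 (adjusted p = 0.0118, standard error 0.44), with an adjusted p of 0.0778 without SHR2, 0.0657 without SHR3 and 0.053 without WKY1. Rims1 was higher by 0.90 on the log2 scale (adjusted p = 0.0122), which became 0.0663, 0.0501, 0.0549 and 0.0646 without SHR2, WKY1, WKY3 and WKY4. Syn3 was higher by 0.79 (adjusted p = 0.0139), which became 0.0744, 0.0683 and 0.0546 without SHR2, WKY3 and WKY4.

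Of 8 genes of GABA and glycine synthesis and transport, 1 was higher and 2 lower, and without SHR1 these were 2 and 1. The 1 that was higher was Slc6a9, the glycine transporter GlyT1, with 28.6, 72.7, 90.01, 28.1 and 70.5 CPM in SHRs and 33.8, 35.6, 26.9 and 27.1 CPM in WKY rats. SHR1 and SHR4 lay within the WKY rats and the other SHRs above all of them, at a log2 fold change of 0.91 (adjusted p = 0.0203). The adjusted p was 0.0786, 0.137, 0.0605, 0.0814 and 0.0704 without SHR2, SHR3, SHR5, WKY3 and WKY4. Slc6a5, the neuronal glycine transporter GlyT2, had 86.9, 165, 168, 88.4 and 114 CPM in SHRs and 61.8 to 83.1 CPM in WKY rats, without overlap but with an adjusted p of 0.0502, which passed without SHR1 (0.0203) and without SHR4 (0.0248). Abat, the transaminase that degrades GABA, was lower, with 136, 113, 112, 117 and 101 CPM in SHRs and 157, 201, 178 and 173 CPM in WKY rats. All SHRs were under all WKY rats, at a log2 fold change of -0.62 (adjusted p = 0.000555, standard error 0.12). Gad1, which makes GABA, had 263, 310, 330, 441 and 371 CPM in SHRs and 453 to 541 CPM in WKY rats (log2 fold change -0.52, adjusted p = 0.0377). With 1 rat left out it passed only without SHR4, with 0.0503 (SHR5) to 0.115 (SHR2) without any 1 of the other 8 rats.

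On the receptor side, none of 19 genes of GABA-A and glycine receptors passed (median 0.01). Of 26 genes of glutamate receptors and their partners only Cacng5 did, an auxiliary subunit of AMPA receptors, which was called lower, and 1 was higher as well without SHR1. Cacng5 had 4.59, 10.9, 13.5, 11.2 and 12.9 CPM in SHRs and 17.5, 22.5, 26.9 and 29.3 CPM in WKY rats, with SHR1 lowest and no overlap. Its log2 fold change was -1.18 (adjusted p = 0.000147, standard error 0.21), and it was called at every other age (-1.01 to -1.47). Without SHR1 the log2 fold change was -0.99, just under the size needed for a call. Of 15 adrenergic and acetylcholine receptor genes, 1 was higher, Chrnb2, a nicotinic receptor subunit (log2 fold change 0.77, adjusted p = 0.0129), with 13.96 to 29.1 CPM in SHRs and 10.9 to 14.01 CPM in WKY rats. SHR4 lay just under the highest WKY rat, and the adjusted p was 0.0735, 0.0859, 0.063 and 0.0505 without SHR2, SHR3, WKY1 and WKY2. None of the 10 genes of catecholamine synthesis and transport passed (median -0.18), and they summed to 791 to 839 CPM in SHRs and 802 to 973 CPM in WKY rats.

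Peptides and their receptors adjust the baroreflex in the NTS. Few of their genes passed, as of all genes, of which 4.44% did in either direction. Of 26 neuropeptide genes tested 1 was lower, and 2 without SHR1. It was Nppc, the C-type natriuretic peptide, with 16.2, 18.6, 16.2, 25.2 and 28.6 CPM in SHRs and 32.5 to 37.6 CPM in WKY rats. No library overlapped (log2 fold change -0.72, adjusted p = 0.0259), and the adjusted p was 0.0825, 0.105, 0.0603, 0.0726 and 0.0531 without SHR2, SHR3, WKY1, WKY2 and WKY3. Of 33 peptide receptor genes 2 were higher and 1 lower, with a median of -0.10, and with 1 rat left out 0 to 2 were higher and 0 to 2 lower. Oprk1, the kappa opioid receptor, had 19.0 to 22.02 CPM in SHRs and 10.9 to 14.3 CPM in WKY rats (log2 fold change 0.69, adjusted p = 0.0208), with 0.0692 without WKY1 and 0.0893 without WKY2. Calcrl, the receptor of adrenomedullin and of the calcitonin gene-related peptide, had 61.7 to 71.3 CPM in SHRs and 36.8 to 41.5 CPM in WKY rats, without overlap (log2 fold change 0.74, adjusted p = 0.0308). It lost the threshold without any 1 rat other than SHR1 and SHR4 (0.0548 without SHR5 to 0.0922 without WKY2), and it passed at each of the other 4 ages, at 0.70 to 1.11. Hcrtr1, the orexin receptor 1, was lower by a log2 fold change of -0.73 (adjusted p = 0.0259), with 6.34 to 11.0 CPM in SHRs and 12.5 to 18.4 CPM in WKY rats, and an adjusted p of 0.0931, 0.0672 and 0.146 without SHR2, SHR4 and WKY1. None of 10 genes of the renin-angiotensin system (median -0.09) and none of 18 of nitric oxide and oxidative stress (0.06) passed.

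**Figure D4:**
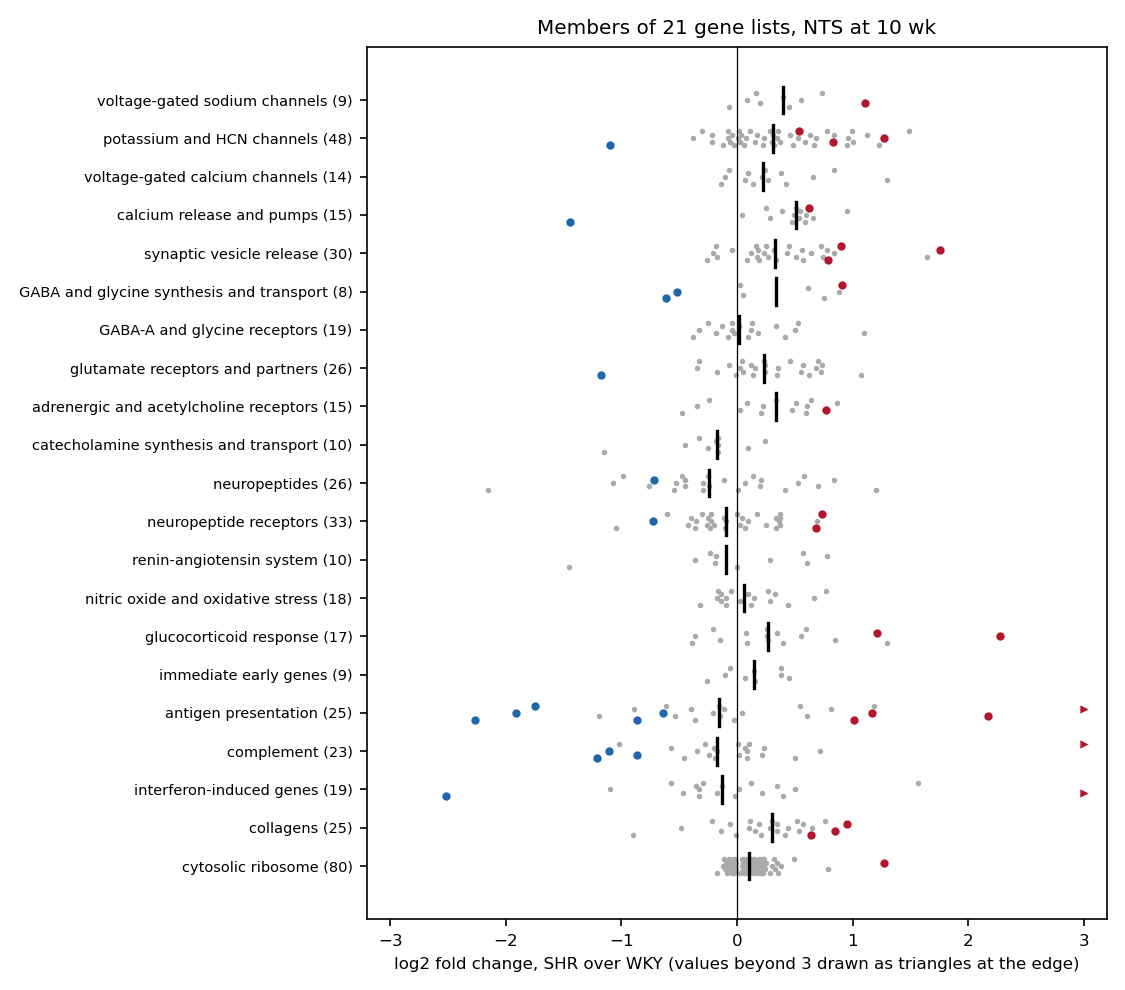
Log2 fold change of SHRs over WKY rats for the tested members of 21 gene lists in the NTS at 10 wk. Each point is a gene, the number of genes stands after the name of the list, and the black bar is the median. Red and blue points are genes with an adjusted p under 0.05, higher and lower, and grey points did not pass.

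A list of 40 genes was drawn from the study's account of this age in the NTS and of changes it describes over regions and ages. The study chose them on these samples, so that their direction is no independent evidence. Of the 39 tested, 12 were higher and 5 lower at an adjusted p under 0.05, with a median of 0.66. Without SHR1, 21 were higher and 4 lower, where 723 and 396 of all genes were. With any 1 rat left out, 2 to 21 of the list were higher. One of them, Mical3, which acts on actin filaments, had 4.52, 8.34, 7.99, 4.08 and 7.25 CPM in SHRs and 2.20 to 3.49 CPM in WKY rats (log2 fold change 1.25, adjusted p = 0.0237). Its adjusted p was 0.0812, 0.0746, 0.0522, 0.0663, 0.0785 and 0.0679 without SHR2, SHR3, SHR5, WKY1, WKY2 and WKY4.

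Glucocorticoids act on the NTS, and Per1, Ddit4 and Sgk1 are among their known target genes in many tissues. Of 17 such genes 2 were higher, and both were called. The median over the 17 was 0.27, with 13 log2 fold changes above 0 and 4 below. Fkbp5 (0.85), Klf9 (0.27), Tsc22d3 (-0.36) and Mt1 (-0.39) of this list did not pass. Over all genes 2.45% were higher and 0.696% were called higher, and the list was not tested as a set. Per1, also a component of the circadian clock, had 0.666, 3.34, 3.04, 2.01 and 3.27 CPM in SHRs and 0.527, 0.440, 0.396 and 0.619 CPM in WKY rats. SHR1 was just above the highest WKY rat and the other SHRs were several-fold above it, at a log2 fold change of 2.28 (adjusted p = 0.000317, standard error 0.42). Ddit4, an inhibitor of mTORC1, had 6.66, 17.1, 13.6, 8.41 and 18.8 CPM in SHRs and 4.52 to 6.86 CPM in WKY rats. Here SHR1 fell within the WKY rats, at a log2 fold change of 1.21 (adjusted p = 0.000797). With the 9 libraries fitted alone the adjusted p was 0.0543, and with the replicate number as a block it was 0.0720. Sgk1, a kinase that regulates sodium channels, did not pass, with 291, 287, 82.4, 164 and 382 CPM in SHRs and 71.2 to 119 CPM in WKY rats. SHR3 lay within the WKY rats, and the adjusted p of 0.0605 became 0.0251 without SHR3 and 0.0431 without SHR4. Per1 was 1 of 16 clock genes tested, and the only one that passed, whereas 2 were higher and 1 lower without SHR1. None of 9 immediate early genes did (median 0.15).

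Immune genes differed in both directions. Of 25 genes of antigen presentation 4 were higher and 5 lower, at a median of -0.16, where 2.45% and 1.99% of all genes were. RT1-A1, a classical class I molecule, had 146, 117, 111, 129 and 121 CPM in SHRs and 31.3, 30.9, 22.1 and 26.2 CPM in WKY rats (log2 fold change 2.17). RT1-A2, its neighbour in the RT1 complex, had 1.78 to 3.60 CPM in SHRs and 8.28 to 10.2 CPM in WKY rats (-1.75). Neither overlapped, and the 2 moved in opposite directions. Reads of such alleles can be split or lost when they differ from the reference, so that levels of RT1 genes are uncertain.

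Tapbp, the tapasin that loads peptides on class I molecules, was higher, with 38.6, 40.5, 48.3, 39.7 and 49.5 CPM in SHRs and 18.4 to 19.9 CPM in WKY rats (log2 fold change 1.17, adjusted p = 2.49e-05). Psmb8, a subunit of the immunoproteasome, was higher by 1.01 on the log2 scale (adjusted p = 2.47e-05), with 9.20 to 13.7 CPM against 4.08 to 6.69 CPM. Both were separated without overlap. The class Ib genes RT1-N2 (-1.91), RT1-N3 (-0.86) and RT1-CE7 (-0.64) were lower, as was RT1-DMa of class II peptide loading (-2.27), with 0.0610 to 5.88 CPM in SHRs and 8.61 to 23.6 CPM in WKY rats. In RT1-N3 and RT1-CE7 the highest SHR, SHR1, lay above the lowest WKY rat, WKY1. RT1-N3 lost the threshold without WKY2 (0.0567) and without WKY4 (0.0517), and RT1-DMa without SHR3 (0.0796), SHR5 (0.0527), WKY1 (0.0972) and WKY2 (0.0505).

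Of 23 complement genes 1 was higher and 3 lower, where 2.45% and 1.99% of all genes were. Factor B of the alternative pathway had 2 gene models, both named Cfb, between which reads can be split. The model that passed, ENSRNOG00000000419, had 11.3, 0.580, 3.36, 1.52 and 5.04 CPM in SHRs and no count in any WKY rat. Against a floor of 3 counts over the WKY rats this model was at least 86.5-fold higher in SHRs, and at least 52.2-fold without SHR1, its highest library. The other model of Cfb had 10.1 to 16.4 CPM in SHRs and 9.75 to 14.7 CPM in WKY rats, which overlapped (log2 fold change 0.02, adjusted p = 0.992), so that counts named for factor B were present in both strains. With limma voom the first model had an adjusted p of 0.0536. C1s and C1r, the proteases of the classical pathway, were lower. C1s had 13.8 to 15.3 CPM in SHRs and 27.9 to 38.0 CPM in WKY rats (log2 fold change -1.10, adjusted p = 1.37e-07), and C1r 9.20 to 13.4 CPM and 17.5 to 26.9 CPM (-0.86). C4a had a log2 fold change of -1.21 (adjusted p = 0.0287), with SHR3 (2.03 CPM) above WKY3 (1.43 CPM), and an adjusted p of 0.107, 0.061, 0.0926, 0.0784 and 0.0708 without SHR2, SHR5, WKY1, WKY2 and WKY4. Of 19 interferon-induced genes, Ifit1 was higher, as above, and 2 genes were without SHR1. Ifi44l was lower, at 0.0634 to 0.610 CPM in SHRs and 1.13 to 2.79 CPM in WKY rats. None of 9 microglial markers passed (median -0.15), they summed to 330 to 355 CPM in SHRs and 349 to 391 CPM in WKY rats, and Siglech was at 0 in all libraries. Of 7 genes of hemoglobin and red cells 1 was lower, and 4 without SHR1. The 1 was Hba-a3, with 1.41 to 2.39 CPM in WKY rats and no count in SHRs, at least 43.6-fold lower than in WKY rats. The 7 summed to 247 to 427 CPM in SHRs and 430 to 529 CPM in WKY rats, without overlap, and the part of blood in the immune genes was not tested.

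The counts of other lists stand beside the same 2.45% of all genes higher and 1.99% lower. Those without SHR1 stand beside 723 of the 13793 genes higher and 396 lower. Of 25 collagen genes 3 were higher, Col4a5 (0.95), Col4a1 (0.64) and Col6a2 (0.85), at a median of 0.30 and with 5 higher without SHR1. The first 2, of the basement membrane, had 6.81 and 7.70 CPM in SHR1, inside the range of the WKY rats, and 11.3 to 16.6 and 9.63 to 15.8 CPM in the other SHRs. Their adjusted p of 0.0162 and 0.04 became 0.0682 to 0.0969 for Col4a5 without SHR2, SHR3, WKY1 or WKY2, and 0.0605 to 0.165 for Col4a1 without any rat but SHR1, SHR4 and WKY3. Col6a2, with an adjusted p of 0.0457, had 0.0764 to 0.181 without any rat but SHR1, SHR4 and WKY4. Of the 80 ribosomal protein genes 1 was higher, Rpl30 (log2 fold change 1.27), with 25.9 to 34.4 CPM in SHRs and 5.78 to 16.3 CPM in WKY rats, a gene with many processed copies. None of the 74 genes of oxidative phosphorylation, 13 of the mitochondrial genome, 24 of the motile axoneme and 15 Hox genes passed, and 1 axoneme gene was lower without SHR1.

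In each class of cell type markers at most 1 was higher and at most 1 was lower, and no class was tested as a set. Of 10 oligodendrocyte markers 1 was higher and 1 lower. Cldn11, the tight junction protein of myelin, had 56.9, 61.9, 62.9, 41.3 and 50.4 CPM in SHRs and 22.5, 32.9, 19.8 and 17.4 CPM in WKY rats (log2 fold change 1.24, adjusted p = 0.000327). Mobp, another myelin protein, had 267, 215, 200, 165 and 189 CPM in SHRs and 395, 440, 299 and 324 CPM in WKY rats (-0.82, adjusted p = 0.00494). Neither overlapped, and the 10 markers, none at 0, summed to 29597 to 45494 CPM in SHRs and 27294 to 47658 CPM in WKY rats. Tagln, of smooth muscle, was 1 of 6 mural markers and was called higher (1.18, or 0.998 without WKY2). All 6 had a log2 fold change above 0 (median 0.38), as had 7263 of the 13793 genes tested. These 6 summed to 53.2 to 76.4 CPM in SHRs and 36.5 to 54.3 CPM in WKY rats, which overlapped. Calb2, 1 of 4 cerebellar granule cell markers tested and also expressed by neurons of the medulla, was lower (-0.60). These 4 summed to 214 to 290 CPM in SHRs and 318 to 377 CPM in WKY rats, without overlap, and this sum holds Calb2. Only 1 of the 4 had every SHR under every WKY rat, and 2 had a log2 fold change above 0. None of 10 general neuronal, 5 NTS, 6 noradrenergic and adrenergic, 5 motor neuron, 5 area postrema and 8 endothelial markers passed. All 5 motor neuron markers had a log2 fold change above 0 (median 0.22). They were lowest in WKY2, at a sum of 173 CPM against 262 to 519 CPM in the other 8 libraries.

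Whether the strain effect at 10 wk differed from its mean at the other 4 ages was then tested in the same fit. This difference passed an adjusted p of 0.05 in 7 genes, 0.0508% of those tested. They were LOC103692716, Rbbp4, a histone-binding protein of chromatin complexes, Cisd2, an iron-sulfur protein of the endoplasmic reticulum and mitochondria, Stk4, a kinase of the Hippo pathway, Per1, Afap1, an actin-binding protein, and Tmem94. At an unadjusted p under 0.05 there were 1339 genes, or 9.71%. Without SHR1 the difference passed the adjusted p in 90 genes, and without any other 1 rat in 1 to 10. Of 47 genes called at 10 wk and at no other age, 34 were higher, 12 had an adjusted p under 0.05 with the same sign at another age, and 2 were among the 7. A call at 10 wk alone is therefore not a tested difference between ages in the other 45.

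LOC103692716 had 522, 268, 254, 268 and 215 CPM in SHRs and no count in any WKY rat of 10 wk, at least 6065-fold above the floor of 3 counts over those rats. At 12, 16 and 24 wk the WKY rats had 283 to 518 CPM. The library names end in a number, 1 or 2, whose meaning was not given, and all libraries of 10 wk end in 2. Only at 8 wk did WKY rats have both numbers. There the 3 WKY libraries ending in 2 had 0, 0 and 24.7 CPM of this gene, and the 2 ending in 1 had 339 and 596 CPM. In SHRs there were 215 to 522 CPM at 10 wk and 235 and 293 CPM in the single libraries ending in 2 at 12 and 24 wk, against 535 to 914 CPM in those ending in 1.

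The same split of the WKY rats at 8 wk was seen in 3 more of the 7 genes. Rbbp4 had 45.3, 60.1, 55.1 and 57.8 CPM in WKY rats of 10 wk, 52.4 to 56.8 CPM in those of 8 wk ending in 2, 86.1 and 88.4 CPM in those of 8 wk ending in 1, and 83.3 to 117 CPM at later ages. Cisd2 had 185 to 217 CPM in WKY rats of 10 wk, 155 to 179 CPM at 8 wk in those ending in 2 and 95.7 and 133 CPM in those ending in 1. Tmem94 had 0.251 to 1.51 CPM at 10 wk, and 0.409 to 1.295 CPM against 4.58 and 5.02 CPM by number at 8 wk. In SHRs of 10 wk Rbbp4 had 162 to 193 CPM, Cisd2 49.3 to 59.3 CPM and Tmem94 22.2 to 53.8 CPM, with ranges that overlapped these at every other age. The strain effect itself passed at every age in all 3, at 0.59 to 1.69 for Rbbp4, -1.11 to -1.899 for Cisd2 and 3.12 to 5.49 for Tmem94, and what the number stands for was not tested. With the number as a term in the fit, all 7 genes kept an adjusted p under 0.05 for the difference between ages (4.17e-05 to 0.0358), and 9 genes passed in all. That term was common to both strains, and all libraries of 10 wk end in 2. It could therefore not take up a split that differs between the strains, and these values do not settle the part of the number.

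**Figure D5:**
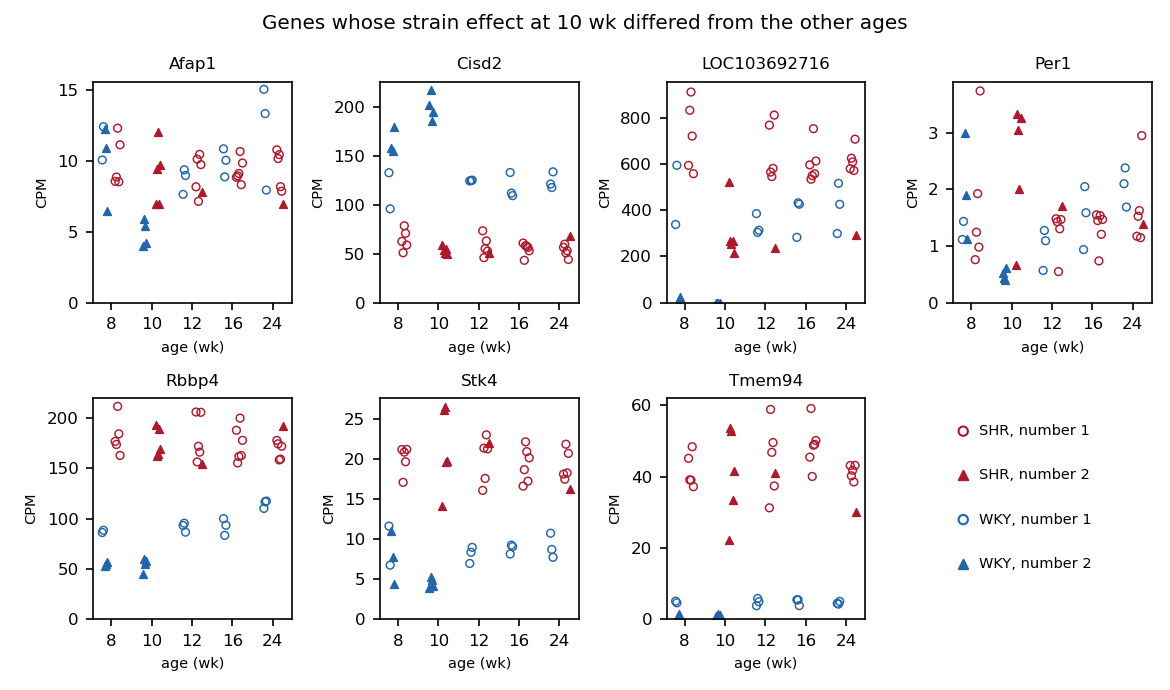
CPM of the 7 genes whose strain effect at 10 wk differed from the other ages, in all 46 NTS libraries by age in wk. Red is SHR, blue is WKY, open circles are libraries whose name ends in 1 and filled triangles those ending in 2. In LOC103692716, Rbbp4, Cisd2 and Tmem94 the WKY triangles of 8 and 10 wk lie together and apart from the WKY circles.

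The other 3 genes did not split in this way. Stk4 had 14.1, 26.05, 26.5, 19.6 and 19.7 CPM in SHRs and 3.92, 5.28, 4.92 and 4.16 CPM in WKY rats at 10 wk. At 8 wk, WKY libraries ending in 2 had 4.39 to 11.0 CPM and those ending in 1 had 6.73 and 11.6 CPM, so that these overlapped. Afap1 had 6.95 to 12.0 CPM in SHRs and 3.99 to 5.91 CPM in WKY rats, and WKY rats of the other ages had 6.43 to 15.01 CPM. Per1 had 0.396 to 0.619 CPM in the WKY rats of 10 wk, 1.12 to 3.00 CPM in those of 8 wk and 0.569 to 2.38 CPM at 12 to 24 wk, and SHRs of the other ages had 0.548 to 3.74 CPM. The difference from the other ages was 2.30 for Per1, 1.02 for Stk4 and 1.02 for Afap1 on the log2 scale, with adjusted p of 0.0445, 0.0445 and 0.0475. All but LOC103692716 lost the threshold without 1 rat, whereas none did so without SHR1, at an adjusted p of 0.00422 to 0.0212. Without SHR2, SHR3, SHR5, WKY1, WKY2, WKY3 or WKY4 the adjusted p of Per1 was 0.0586 to 0.205, of Stk4 0.0775 to 0.195, of Afap1 0.0775 to 0.223, of Rbbp4 0.0513 to 0.195, of Cisd2 0.0586 to 0.195 and of Tmem94 0.062 to 0.244.

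Clock genes such as Per1 are driven through the E-box CACGTG, so the starts of these genes are shown, from RefSeq on build GRCr8 with 250 bases before and 50 after the annotated start. A promoter was listed for 6 of the 7 genes, and 2 of them held the E-box on either strand, against 6.42% of 33469 promoters of this length. The capitals mark it. It begins 82 bases before the start of Stk4 (chr3:173167742-173168041, plus strand) and 214 bases before that of Afap1 (chr14:79080890-79081189, minus strand), and it is not in the window of Per1 (chr10:54304126-54304425, plus strand). The glucocorticoid half-site TGTTCT, held by 20.7% of promoters, and the cAMP element TGACGTCA, held by 1.83%, were in none of the 6. A match is a run of letters and was not tested as a site.
Stk4: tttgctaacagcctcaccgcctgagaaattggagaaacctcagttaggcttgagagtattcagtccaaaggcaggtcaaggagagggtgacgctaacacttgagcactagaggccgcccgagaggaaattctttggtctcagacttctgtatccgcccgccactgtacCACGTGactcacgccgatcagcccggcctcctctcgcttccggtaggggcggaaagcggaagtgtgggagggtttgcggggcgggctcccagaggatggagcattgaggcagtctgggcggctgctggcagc
Afap1: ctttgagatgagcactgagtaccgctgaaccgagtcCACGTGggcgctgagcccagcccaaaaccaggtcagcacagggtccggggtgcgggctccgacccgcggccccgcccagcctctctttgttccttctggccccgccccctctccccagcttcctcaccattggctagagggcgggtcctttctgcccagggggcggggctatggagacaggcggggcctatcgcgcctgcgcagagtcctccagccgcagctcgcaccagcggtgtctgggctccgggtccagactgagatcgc
Per1: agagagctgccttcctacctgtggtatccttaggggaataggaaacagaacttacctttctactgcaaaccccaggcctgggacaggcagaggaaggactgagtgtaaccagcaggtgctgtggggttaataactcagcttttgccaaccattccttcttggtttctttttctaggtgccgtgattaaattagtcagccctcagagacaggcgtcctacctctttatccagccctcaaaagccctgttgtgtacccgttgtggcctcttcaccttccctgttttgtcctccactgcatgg

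The strain effect in the NTS was last set against that in the other regions of the same rats, with the rat as a block, over 13116 genes tested in all 3. It differed from the RVLM in 56 genes, 0.427%, of which 28 had a higher and 28 a lower log2 fold change in the NTS, and 1819 genes (13.9%) had an unadjusted p under 0.05. Of the 56, 30 had an adjusted p under 0.05 in the NTS and 18 were called there. From the CVLM it differed in 5 genes, 0.0381%, with 1349 (10.3%) at an unadjusted p under 0.05, and all 5 had a lower log2 fold change in the NTS.

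Terf2ip, a protein of the telomere complex, differed from both regions. It had 136, 120, 126, 135 and 120 CPM in the NTS of SHRs and 246, 199, 235 and 289 CPM in that of WKY rats. The groups did not overlap, with a log2 fold change of -0.92 in the NTS, -0.12 in the RVLM and -0.05 in the CVLM, and the differences had an adjusted p of 2.54e-06 and 3.45e-07. Cbs, the cystathionine beta-synthase that makes hydrogen sulfide, had 56.2 to 67.7 CPM in SHRs and 43.8 to 65.5 CPM in WKY rats, with 0.23 in the NTS (adjusted p = 0.455) against 1.71 in the RVLM and 1.18 in the CVLM. The other 3 that differed from the CVLM were Igfbp5, a binding protein of insulin-like growth factors (-0.60 against 2.19), Map2k6, a kinase upstream of p38 (-0.57 against 0.33), and Pamr1 (-0.30 against 0.57), none of which passed in the NTS itself.

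From the RVLM alone, C1s differed by -1.22 (adjusted p = 0.00619), being lower in the NTS and at 0.09 in the RVLM. Cfap206, a protein of motile cilia, was lower in the NTS (-3.02) but less so than in the RVLM (-6.04). Trpm8, the cold-sensing channel, was lower in the NTS (-2.84) with 0.148 to 0.427 CPM in SHRs and 1.07 to 3.26 CPM in WKY rats, and had -0.48 in the RVLM. Per1 was at 2.28 in the NTS and -0.36 in the RVLM (adjusted p of the difference 0.0214). Golga2, a protein of the Golgi, was at 1.24 and -0.05 (0.0409), and Myo18a, an unconventional myosin, at 1.06 and -0.27 (0.0262). In Myo18a, SHR1 had 23.8 CPM, within the WKY rats (20.7 to 25.3 CPM), and the other SHRs 32.1 to 74.8 CPM. With the 9 NTS libraries fitted alone, the strain effect in the NTS had an adjusted p of 0.0868 for Myo18a and 0.0528 for Golga2. With the 27 libraries of 10 wk fitted alone, which gives 15 genes against the RVLM, leaving out 1 rat gave 5 to 31.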

How the data were processed

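RNA sequencing of NTS punches was analysed. The authors aligned reads with STAR to the rat genome rn6 and estimated expression with RSEM, and they deposited expected counts per gene in 1 table per region. The study's methods also name ComBat_seq for batch correction, and whether the deposited counts had passed through it is not given in the sources used here (5.02% of the NTS values were not whole). Other deposited columns were not used.

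Expected counts were rounded. Genes with a regularized log value of at least 3.5 in any NTS library were kept (13793 of 32883). Groups were taken from the labels. For 2 CVLM libraries the title gave 8 wk and the age label 10 wk. They were placed at 8 wk by title, and so are not in the comparison of 10 wk. A model with 10 groups of strain and age was fitted to all 46 NTS libraries with edgeR 4.0.16 (quasi-likelihood test, TMM, R 4.3.3), so that the spread is shared over ages, and p-values were adjusted by Benjamini-Hochberg over all genes tested. Calls needed an adjusted p no greater than 0.01 and a log2 fold change of 1 or more in size. The contrast of 10 wk with the mean of the other 4 ages came from the same fit, and regions were compared in a fit with the rat as a block over 13116 genes. Levels are TMM-scaled CPM. The test was checked on simulated data.

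Each library is a separate rat. Over 16 pairs of libraries of a group the lowest chi-square per gene was 7.67, so that none was a repeat. Alternatives were DESeq2 1.42.0, limma 3.58.1 (voom with sample weights), other scaling, no filter, other samples, other thresholds, and 1 rat left out. Named genes were the 15 highest and 15 lowest called genes with a mean of at least 50 counts, those that passed a test between ages or regions, and members of the gene lists that passed or, where none did, had the largest changes, as well as genes the study names. Some genes are not reported here. Members and lists were chosen with earlier results of these data known. Totals of 12777588 to 17755961 counts limit genes of few counts most, and bounds on a fold, from a floor of 3 counts over a group, cover counting error only.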

Additional observations from a re-analysis of the deposited data

Results flagged for a closer look

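A library stood apart from the others of its strain, by Dixon's 95% limit for the gap to its nearest neighbour, in 15 of 204 sets of values looked at (7.35%, where chance gives about 5%). SHR1 was that library in 5, with the summed levels of ribosomal protein genes (7316 CPM), nuclear-encoded oxidative phosphorylation genes (30876 CPM) and oligodendrocyte markers (45494 CPM), with LOC103692716 (522 CPM) and with Prlh (8.22 CPM). SHR3 was the lowest SHR for choroid plexus markers (5.90 CPM). WKY4 was the highest WKY rat for choroid plexus markers (119 CPM) and for astrocyte markers (7282 CPM). WKY1 stood apart in 5 sets, as the highest for AABR07064061.1 (0.527 CPM), LOC100911830 (1.13 CPM), LOC100360940 (1.73 CPM) and LOC100362027 (43.8 CPM), and as the lowest for RT1-N3 (3.16 CPM). WKY2 was the highest for C1r (26.9 CPM), and WKY3 the lowest for C4a (1.43 CPM).

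The strain effect at 10 wk differed from the mean of the other ages, as a difference of log2 fold changes, by 13.70 for LOC103692716, whose WKY libraries of 10 wk were at 0, so that this value depends on the fit and is no bound. It differed by 2.30 for Per1, 2.05 for Tmem94, 1.02 for Stk4, 1.02 for Afap1, 0.72 for Rbbp4 and -0.76 for Cisd2.

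The strain effect in the NTS less that in the RVLM was 3.02 for Cfap206, 2.50 for Per1, 1.18 for Golga2 and 1.18 for Myo18a. It was -2.37 for Trpm8, -1.51 for Cbs, -1.22 for C1s, -1.10 for Pamr1 and -0.82 for Terf2ip. The strain effect in the NTS less that in the CVLM was -2.85 for Igfbp5, -0.98 for Cbs, -0.96 for Map2k6, -0.89 for Pamr1 and -0.89 for Terf2ip.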

How the results depend on the processing

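Genes called higher in SHRs numbered 96, and 317 with limma voom, 58 with the 9 libraries fitted alone, 39 above an absolute log2 fold change of 2, 282 at an adjusted p under 0.05 with a lower limit on the fold, 338 at that p with any fold, and 73 to 147 with 1 rat left out. Genes called lower numbered 76, and 122 with limma voom, 28 above 2, 189 with the lower limit, 274 with any fold, and 66 to 74 with 1 rat left out. The 7 genes that differed from the other ages became 11 with DESeq2 and 1158 with limma voom. They became 2 with DESeq2 size factors, 1 without the filter, 90 without SHR1 and 1 to 10 without any other 1 rat. The 56 genes that differed from the RVLM became 15 without the pairing by rat and 15 with the 27 libraries of 10 wk alone (5 to 31 with 1 rat left out). The 5 that differed from the CVLM became 2 and 1 (1 to 3). With the replicate number as a block 65 genes were called higher, 64 lower and 0 differed from the other ages. Same-numbered deviations correlated at 0.290, 0.174, 0.0509 and -0.00865, and those of different numbers at -0.204 to 0.172. Whether the numbers pair the rats cannot be told from so few values. The cause was not tested. Of 92 genes named in the text 82 had an adjusted p under 0.05, of which 53 kept it with the same sign in every setting that changed the fit or the rats and 29 lost it in at least 1, among them 23 with the 9 libraries alone and 19 without SHR2. None of the 82 reversed.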
